A study of Homo sapiens with 6 samples.

Results

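Sense-intronic, sense-overlapping and TEC transcripts were examined in the RNA of MDA-MB-231 cells, a mesenchymal triple-negative breast cancer line, as rows of the gene tables. A row was selected when its biotype was sense_intronic, sense_overlapping or TEC and its mean over the 6 libraries was at least 0.1 FPKM, counts scaled to gene length and to library size. The selection held 766 of the 2134 rows of these biotypes, among 58735 genes in all. It comprised 408 sense-intronic, 86 sense-overlapping and 272 TEC rows. AC027373.1, with 0.101 FPKM, lay just inside the minimum, and AC084026.3, with 0.0999 FPKM, lay just outside.

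The study compared 3 libraries titled CB with 3 titled Vector, both from the same cell line. The CB libraries carry CB1 in their treatment field, and the methods describe a line that stably overexpressed the cannabinoid receptor CB1 after lentiviral transduction of a pCDH construct. The Vector libraries carry DMSO, the vehicle, in that field. The methods speak of puromycin selection and of pooled clones for stable lines. The sources used here do not say whether libraries came from separate cultures, so p-values measure only the spread between these libraries, which may be technical.

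A sense-intronic row is a transcript annotated inside an intron of another gene on the same strand. A sense-overlapping row covers another gene on its own strand, usually holding it within an intron. TEC is the GENCODE class of mostly unspliced transcripts, often drawn from expressed sequence tags with a poly(A) feature, whose existence still awaits experimental proof. The unspliced precursor of the surrounding gene, called the host here, carries the same bases as an intronic row. Reads of a row and of the host's precursor can therefore not be told apart, and the comparison asks whether such signal was higher overall in CB libraries. In bulk RNA, more cells that make a transcript and more transcript per cell cannot be told apart either.

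Most selected rows lay in introns of protein-coding genes. A host was found for 577 rows, in 535 cases a protein-coding gene. There were 482 rows that lay wholly within 1 intron, 19 that spanned several introns and 58 that shared exon bases with the host. Introns here and below are gaps between the merged exons of all annotated transcripts of the host. They are numbered along the host's strand, so a number need not match the introns of any 1 transcript. No host was found for 189 rows. The rows were short and thinly covered, with a median length of 559 bases for sense-intronic, 1105 for sense-overlapping and 1664 for TEC rows. Their median total was 38 counts over all 6 libraries, the range was 2 to 2193, and 471 rows held under 60 counts.

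Libraries were made from oligo(dT)-selected RNA, and a poly(A) tail is usually added a short way after the hexamer AATAAA or its variant ATTAAA. The last 50 bases of the longest annotated transcript held at least 1 of these hexamers, read on the transcribed strand, in 340 of 765 selected rows with a sequence, or 44.4%. The share was 50.2% for sense-intronic, 47.1% for sense-overlapping and 34.9% for TEC rows, beside 60.1% of all genes tested, 76.3% of protein-coding genes and 3.55% of processed pseudogenes. It was 45.7% in the 81 rows called higher in CB libraries, 50% in the 36 rows called lower and 44.0% in the others. A match of letters is a description and not a mapped cleavage site.

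The 3′ ends of 9 rows on which the results turn are shown as the last 100 bases of the GENCODE 29 transcript, build GRCh38, 5′ to 3′ on the transcribed strand, with the hexamer in capitals. AL035425.3 (chrX:108719949-108720048, minus strand) and AL513497.1 (chr1:28546443-28546542, plus strand) were among the rows with the largest rises. AC018628.1 (chr17:62003700-62003799, minus strand) and AL161891.1 (chr13:33850726-33850825, plus strand) moved against their hosts. AL049840.4 (chr14:103697064-103697163, plus strand) was among the rows with the highest mean FPKM. AC004918.3 (chr7:141662922-141663021, minus strand), which holds ATTAAA, and AC008115.3 (chr12:12719422-12719521, plus strand) fell with their hosts. AC015799.1 (chr17:2642319-2642418, plus strand), which rose, and AC022400.7 (chr10:73742995-73743094, minus strand), which fell, hold neither hexamer in the last 50 bases.
AL035425.3: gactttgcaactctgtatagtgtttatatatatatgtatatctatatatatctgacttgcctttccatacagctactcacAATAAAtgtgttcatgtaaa
AL513497.1: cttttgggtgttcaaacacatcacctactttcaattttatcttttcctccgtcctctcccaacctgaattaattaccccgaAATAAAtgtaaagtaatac
AC018628.1: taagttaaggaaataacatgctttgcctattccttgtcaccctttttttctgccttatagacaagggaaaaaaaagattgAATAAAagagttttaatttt
AL161891.1: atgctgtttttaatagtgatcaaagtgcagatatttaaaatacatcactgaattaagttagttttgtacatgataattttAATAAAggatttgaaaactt
AL049840.4: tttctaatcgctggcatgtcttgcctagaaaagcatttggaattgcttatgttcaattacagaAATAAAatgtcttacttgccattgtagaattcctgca
AC004918.3: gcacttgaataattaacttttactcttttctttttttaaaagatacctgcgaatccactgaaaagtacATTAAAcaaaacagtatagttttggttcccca
AC008115.3: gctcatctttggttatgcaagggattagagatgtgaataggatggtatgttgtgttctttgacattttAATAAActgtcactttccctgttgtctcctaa
AC015799.1: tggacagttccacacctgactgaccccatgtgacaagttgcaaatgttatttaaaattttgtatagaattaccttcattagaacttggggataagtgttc
AC022400.7: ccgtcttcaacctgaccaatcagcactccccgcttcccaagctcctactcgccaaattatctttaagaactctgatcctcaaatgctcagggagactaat

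The libraries held 16957881 to 18833661 counts each. CNR1, which encodes CB1, had 6465, 7703 and 7353 counts in CB libraries and 7, 6 and 4 in Vector libraries, as labelled. Of the genes that mark this line, VIM and CD44 were higher in CB libraries (log2 changes of 0.44 and 0.43), EGFR was lower (−0.47) and CAV1 did not pass the test (−0.04). ESR1 had at most 5 counts and PGR at most 15 in any library, and ERBB2 did not pass the test (0.02). Of the epithelial and luminal genes, KRT8 and KRT18 were higher, EPCAM was lower, GATA3 did not pass the test and CDH1 lay below the minimum. Of 7 genes of HEK293 cells, the embryonic kidney line commonly used to package lentivirus, 6 were tested and NEFL, NEFM, INA and LIN28B were higher in CB libraries. SOX2 was lower, GAD1 did not pass the test, and PAX2, below the minimum, had 15, 8 and 11 counts in CB libraries, against 2, 0 and 1 in Vector libraries. The summed level of the 7 genes was 6.46 to 7.44 FPKM in CB and 3.45 to 3.57 FPKM in Vector libraries. More genes had at least 1 count in the CB libraries, at 27162, 25869 and 26850, than in the Vector libraries, at 24405, 24080 and 24007.

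The summed signal of these biotypes averaged 1.13 times as much in CB as in Vector libraries, with an SD of 0.10 for that ratio. All 2134 rows together took 916, 935 and 1033 CPM, counts scaled to library size, in CB libraries, against 907, 812 and 827 in Vector libraries. The groups did not overlap, though the lowest CB library lay close to the highest Vector library. Shares here and below use raw library totals, while CPM of single rows also use the TMM factors of the edgeR test. With these factors the 2134 rows took 952, 950 and 1034 in CB libraries, against 884, 800 and 815 in Vector libraries. That ratio was 1.175 ± 0.085 (SD, exact p = 0.1). The factors were 0.963, 0.984 and 0.999 in CB libraries, against 1.03, 1.01 and 1.01 in Vector libraries. They raise CB values against Vector values, so an overlap on raw totals need not hold with them. On raw totals the means were 961 ± 63.0 in CB and 849 ± 51.3 in Vector libraries (SD, n = 3 each), a ratio of 1.13 ± 0.10 (SD). The two-sided exact permutation p was 0.1, the smallest that 3 against 3 libraries can give. Over the 766 selected rows alone the ratio was 1.11, over the 482 rows within 1 intron it was 1.12, and without the 10 rows with the highest counts it was 1.09. In each of these the groups overlapped on raw totals (exact p = 0.2, 0.2 and 0.3). These smaller sets were not scaled with the TMM factors.

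Sense-overlapping rows took 165, 158 and 179 CPM in CB libraries, against 139, 127 and 129 in Vector libraries, a ratio of 1.27 without overlap (exact p = 0.1). On raw totals this separation rested on the row AL035425.3. Without it the sense-overlapping rows took 145, 137 and 152 CPM in CB libraries, against 138, 126 and 129 in Vector libraries. These overlapped, with a ratio of 1.10 (exact p = 0.2). The same set was not scaled with the TMM factors. Sense-intronic rows took 358, 357 and 383 in CB libraries, against 329, 303 and 309 in Vector libraries, a ratio of 1.17 without overlap (exact p = 0.1). TEC rows took 392, 420 and 471 in CB libraries, against 440, 382 and 388 in Vector libraries, and overlapped, with a ratio of 1.06 (exact p = 0.5). The 1368 rows below the minimum took only 43.4, 33.4 and 48.3 CPM in CB libraries, against 23.1, 18.5 and 20.8 in Vector libraries, a ratio of 2.01 (exact p = 0.1). Their sum was a small part of the whole.

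**Figure D1:**
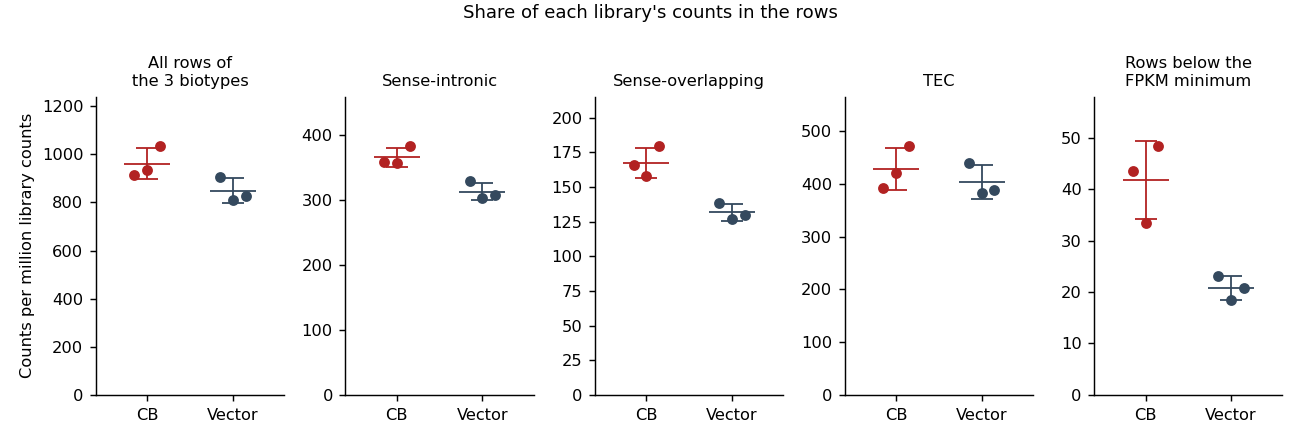
CPM (vertical axes, each starting at 0) in all rows of the 3 biotypes, in each biotype and in the rows below 0.1 FPKM. Points are libraries, and bars are the mean with its SD (n = 3). CB points lie above all Vector points in every panel except TEC, where 392 in 1 CB library lies below 440 in 1 Vector library. Values use raw library totals, on which the sense-overlapping groups overlap once AL035425.3 is left out.

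Other gene classes gave ratios on both sides of 1. Small RNA genes inside protein-coding genes took 91.4, 94.9 and 114 CPM in CB libraries, against 80.7, 78.8 and 73.2 in Vector libraries, a ratio of 1.29 (exact p = 0.1). The 386 olfactory receptor genes, which are silent in most cells outside the nose, had 134, 121 and 151 counts in CB libraries, against 91, 68 and 95 in Vector libraries. In shares that was 7.44 ± 0.98 in CB and 4.93 ± 0.90 CPM in Vector libraries, a ratio of 1.51. Processed pseudogenes gave a ratio of 1.15 without overlap (exact p = 0.1) and antisense genes 1.01. The lincRNA genes gave 0.915, also without overlap (exact p = 0.1). The long noncoding RNA NEAT1 alone had 7143, 8457 and 8833 counts in CB libraries, against 14595, 14021 and 13081 in Vector libraries. The lincRNA ratio without NEAT1 was not computed. The part of these gene classes in the ratio of the rows was not tested.

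Gene by gene, most selected rows did not pass the test. With the edgeR quasi-likelihood test over 22289 genes, 81 rows, or 10.6%, were higher and 36, or 4.70%, were lower in CB libraries at an adjusted p under 0.05, while 649 did not pass. Of all genes tested, 18.4% were higher and 19.5% lower. CPM values did not overlap between the groups in 210 rows, 145 of them higher and 65 lower in CB libraries, which is 27.4% beside 48.1% of all genes. The median log2 change was 0.36 over the rows and 0.04 over all genes, and 0.34 and 0.0044 with genes at 0 in a whole group set at their bound against 3 counts. Without Vector replicate 2 the calls were 46 higher and 21 lower, and without Vector replicate 1 they were 61 and 21.

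Rows of each biotype were called higher more often than lower. Of sense-intronic rows 39, or 9.56%, were higher and 13, or 3.19%, lower in CB libraries. Of sense-overlapping rows 9 (10.5%) were higher and 4 (4.65%) lower, and of TEC rows 33 (12.1%) and 19 (6.99%). Of all genes tested, 18.4% were higher and 19.5% lower. The median log2 changes of the 3 biotypes were 0.42, 0.23 and 0.32 in that order. Within 1 intron, 7 of 82 rows (8.54%) in the first intron were higher and 3 lower. In the last intron 11 of 65 (16.9%) were higher and 4 lower, and in others 35 of 335 (10.4%) and 14. Medians were 0.39, 0.28 and 0.49 in that order.

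The median change was highest in the rows with fewest counts, and the same held for other genes. Rows with up to 10 counts had a median log2 change of 0.81, beside 1.10 for other genes of that range. Between 31 and 60 counts it was 0.44 for the rows, 0.23 for other genes and 0.50 for protein-coding genes. Between 301 and 1000 counts it was 0.07 for the rows and −0.07 for other genes. Of the 14 rows above 1000 counts 8 were called higher and 2 lower, with a median of 0.38, and AL035425.3 was among them. Other genes above 1000 counts gave 26.3% higher and 33.4% lower, with a median of −0.05. Among the 295 rows with at least 60 counts, 56, or 19.0%, were higher and 29, or 9.83%, lower, with a median of 0.13. All genes with at least 60 counts gave 24.0% higher and 27.1% lower, with a median of −0.03.

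**Figure D2:**
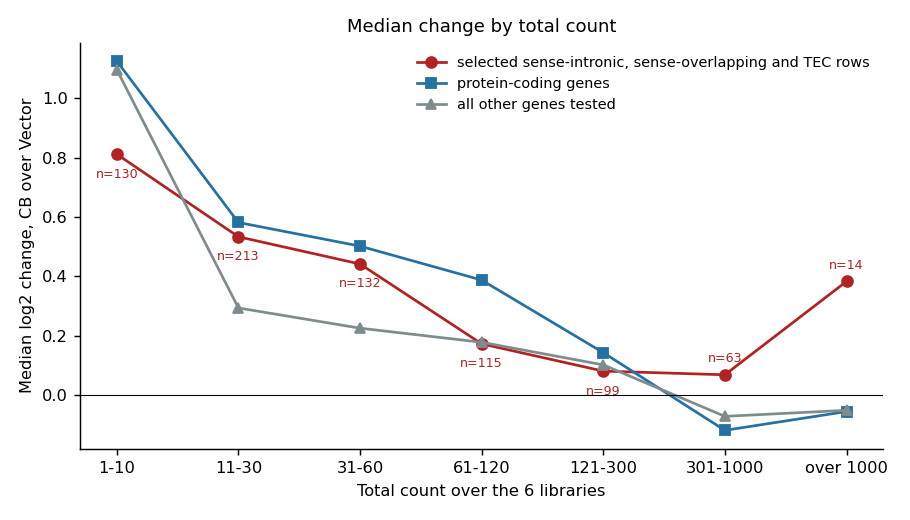
Median log2 change, CB over Vector (vertical axis), by total count over the 6 libraries (horizontal axis, 7 ranges), for the selected rows, protein-coding genes and all other genes tested. Each point is a median over genes, with the number of rows printed, and the rows run from 0.81 at up to 10 counts to 0.07 at 301 to 1000 counts, while the last range holds 14 rows.

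AL035425.3 (chrX:108719949-108724944), a sense-overlapping row, rose more than any other row with at least 30 counts. It had 367, 384 and 487 counts in CB libraries, against 5, 15 and 12 in Vector libraries. All CB libraries lay far above all Vector libraries, and the difference was 5.23 ± 0.22 on the log2 scale (estimate ± SE here and below, edgeR adjusted p = 5.11e-12). The TEC row AL035425.4 (chrX:108725886-108726948), close by, had 18, 34 and 35 counts in CB libraries, against 2, 5 and 1 in Vector libraries, a log2 change of 3.35 ± 0.50 (edgeR adjusted p = 2.8e-05). Its groups did not overlap either.

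Both rows lie on chromosome X, on the minus strand, after the end of IRS4, which encodes an insulin receptor substrate first described in HEK293 cells. AL035425.4 starts 5534 bases and AL035425.3 starts 7538 bases past the annotated end of IRS4. IRS4 itself had 203, 501 and 429 counts in CB libraries, against 14, 10 and 15 in Vector libraries, a log2 change of 4.81 ± 0.30 (edgeR adjusted p = 9.1e-10). The host by the rule, AL035425.2, which shares exon bases with AL035425.3, held only 1, 1 and 5 counts in CB libraries and 1, 0 and 0 in Vector libraries, so the called rise of the ratio of AL035425.3 to it rests on few host counts. The summed level of the HEK293 genes was also higher in CB libraries, as given above, and its part in these rises was not tested. Without AL035425.3 and AL035425.4 the ratio of the summed share was 1.11 on raw totals, and the groups overlapped there (exact p = 0.2).

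**Figure D3:**
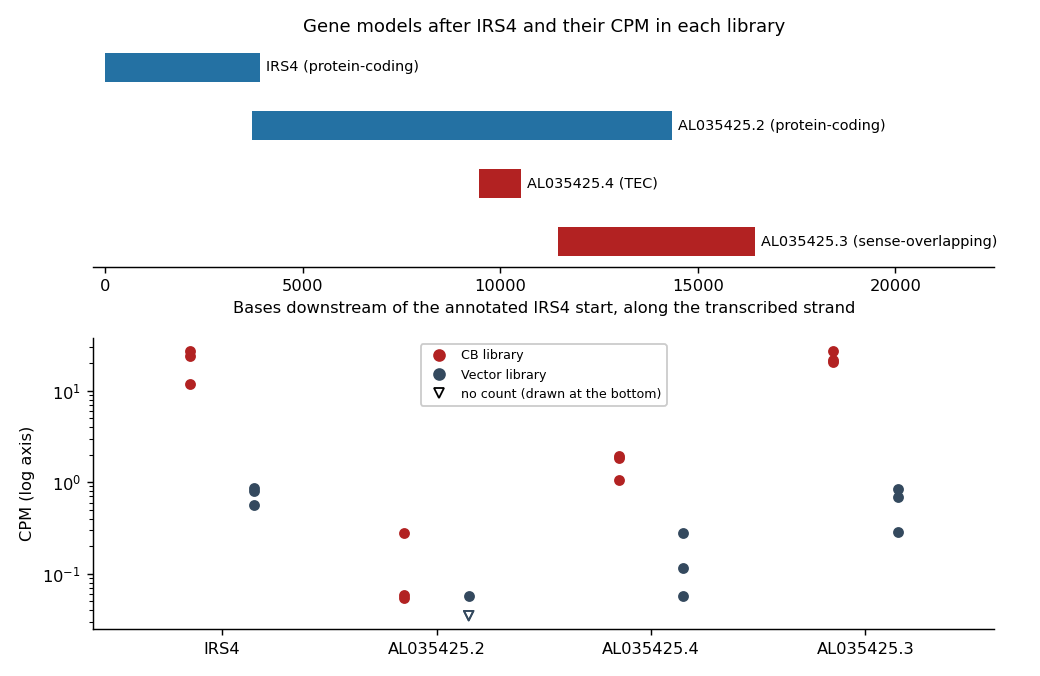
Upper panel, the gene models after IRS4 drawn to scale as bases downstream of the annotated IRS4 start. Lower panel, CPM of the same genes in each library on a log axis, CB left of Vector, where IRS4, AL035425.4 and AL035425.3 have every CB library above every Vector library and AL035425.2 lies under 0.28 CPM.

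AL513497.1 (chr1:28544460-28546542), a TEC row with no host, starts 5160 bases past the end of RCC1, the exchange factor of the GTPase Ran. It had 151, 139 and 155 counts in CB libraries, against 31, 24 and 36 in Vector libraries. The groups were far apart, with a log2 change of 2.26 ± 0.19 (edgeR adjusted p = 3.38e-08). RCC1 rose less, by a log2 change of 0.68. AL596244.1 (chr9:121815674-121819452), a sense-overlapping row 2476 bases past TTLL11, a tubulin polyglutamylase gene, had 261, 298 and 299 counts in CB libraries, against 147, 162 and 159 in Vector libraries, without overlap. Its log2 change was 0.84 ± 0.11 (edgeR adjusted p = 9.19e-06), and that of TTLL11 was 0.23 (adjusted p = 0.194).

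The other large rises came from rows with few counts. AC015799.1 (chr17:2639297-2642418), in intron 6 of 16 of PAFAH1B1, which encodes the dynein regulator LIS1, had 34, 14 and 26 counts in CB libraries, against 4, 2 and 5 in Vector libraries. AP000525.1, in the pseudogene DUXAP8, had 20, 28 and 14 in CB libraries, against 4, 7 and 0 in Vector libraries, and DUXAP8 itself rose by a log2 change of 2.08. AL031009.1, in JPT2, had 10, 27 and 40 in CB libraries, against 4, 6 and 6 in Vector libraries. In these 3 rows the groups did not overlap, and the log2 changes were 2.69 ± 0.50, 2.42 ± 0.59 and 2.20 ± 0.49 (edgeR adjusted p = 0.000267, 0.00256 and 0.00133). By limma on log2(FPKM + 0.1) the calls of AP000525.1 and AL031009.1 were lost (adjusted p = 0.0666 and 0.0515). That of AL031009.1 was also lost by limma on log2(FPKM + 1), at 0.0592.

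The remaining 6 of the 12 largest called rises among rows with at least 30 counts and groups that did not overlap ran from 2.14 to 3.18 on the log2 scale, in AF131215.4, HS1BP3-IT1, AC010735.1, AC116407.3, AC091132.3 and AC100788.2. AC100788.2 rested on 1 library, with 8, 4 and 28 counts in CB libraries, against 3, 0 and 1 in Vector libraries. Its edgeR adjusted p was 0.00717, and it was 0.15 without CB replicate 3 and 0.0612 without Vector replicate 2. The call of AC116407.3 was lost without Vector replicate 2 or 3 or CB replicate 2 or 3, with adjusted p between 0.0501 and 0.1. That of AC091132.3 was lost without Vector replicate 1 or 2 or CB replicate 1 or 2, with adjusted p between 0.0615 and 0.0997. That of HS1BP3-IT1 was lost without Vector replicate 1, at 0.0557. AC010735.1 had 10, 22 and 18 counts in CB libraries, against 6, 3 and 1 in Vector libraries, without overlap, and passed in each of these fits. Another 5 called rises had no Vector count and under 30 counts in all, and for these a fold depends on an assumed Vector floor.

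**Figure D4:**
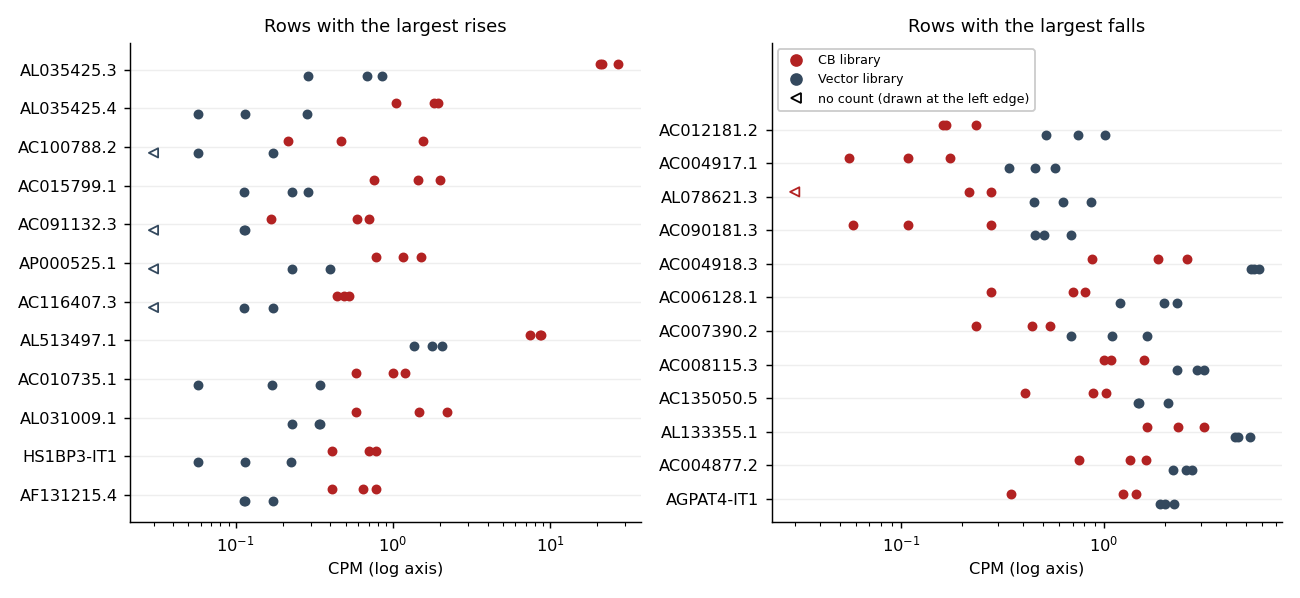
CPM of each library (horizontal log axis) for the 12 rows with the largest rises (left) and the 12 with the largest falls (right) among called rows with at least 30 counts and no overlap between groups. The CB points of AL035425.3 lie between 20.7 and 27.0 CPM and its Vector points under 0.85 CPM, while most other rows lie under 3 CPM.

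AC022400.7 (chr10:73742995-73744230), a TEC row with no host, was the fall with the smallest p. It had 102, 130 and 129 counts in CB libraries, against 257, 211 and 210 in Vector libraries. The groups did not overlap, with a log2 change of −0.94 ± 0.14 (edgeR adjusted p = 1.87e-05). The next gene before it on its strand, NDST2, lies 57681 bases away.

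AC004918.3 (chr7:141662922-141663846), in intron 9 of 9 of KIAA1147, fell together with its host. It had 15, 34 and 46 counts in CB libraries, against 95, 103 and 92 in Vector libraries. CB replicate 1 was lowest, and the groups were well apart, with a log2 change of −1.64 ± 0.25 (edgeR adjusted p = 3.03e-05) beside −0.97 for KIAA1147. AC008115.3 (chr12:12718973-12719521), in the last intron of CDKN1B, the gene of the cyclin-dependent kinase inhibitor p27, had 27, 20 and 18 counts in CB libraries, against 40, 55 and 50 in Vector libraries, without overlap. Its log2 change was −1.18 ± 0.26 (edgeR adjusted p = 0.00121), and that of CDKN1B was −0.58.

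AL133355.1, a sense-overlapping row 2781 bases past STN1, a telomere replication gene, had 28, 43 and 56 counts in CB libraries, against 91, 78 and 80 in Vector libraries. The groups did not overlap, and the fitted CB level was 0.499 times the Vector level (edgeR adjusted p = 0.000935), beside a log2 change of −0.48 for STN1. AC012181.2, in HERPUD1, a gene induced by endoplasmic reticulum stress, had 4, 3 and 3 counts in CB libraries, against 9, 18 and 13 in Vector libraries, a log2 change of −1.99 ± 0.56 (edgeR adjusted p = 0.00766). Its groups did not overlap, but without Vector replicate 2 the adjusted p was 0.0608. HERPUD1 fell by 0.54 on the log2 scale.

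AC004877.2, in ZNF862, had 23, 14 and 29 counts in CB libraries, against 47, 45 and 38 in Vector libraries (edgeR adjusted p = 0.00753). AGPAT4-IT1, in the acyltransferase gene AGPAT4, had 6, 23 and 26 in CB libraries, against 33, 39 and 35 in Vector libraries (edgeR adjusted p = 0.0307). Neither overlapped between groups, and both hosts fell, ZNF862 by 0.60 and AGPAT4 by 0.70 on the log2 scale. AC006128.1 had 12, 15 and 5 counts in CB libraries, against 40, 35 and 21 in Vector libraries, a log2 change of −1.60 ± 0.39 (edgeR adjusted p = 0.0024).

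The other large falls were AC004917.1, AL078621.3, AC090181.3, AC007390.2 and AC135050.5, between −1.96 and −1.10 on the log2 scale. AC006128.1 shares 68.5% of its bases with exons of AKAP8L on the other strand, and AC007390.2 shares 10.7% with exons of CEBPZ. Without strand information, which the sources used here do not give for the counting, their reads cannot be told apart from those genes. The calls of AC004917.1, AL078621.3, AC090181.3 and AGPAT4-IT1 were lost without any of the 3 Vector libraries, with adjusted p between 0.055 and 0.155. Those of AL078621.3 and AC090181.3 were also lost without CB replicate 1 or 2 (0.068 to 0.0991), that of AC004917.1 without CB replicate 2 or 3 (0.0836 and 0.106), and that of AGPAT4-IT1 without CB replicate 1 or 2 (0.0953 and 0.0544). That of AC007390.2 was lost without Vector replicate 2, at 0.14. With the replicate number as a block those of AC004917.1 (0.0802) and AC090181.3 (0.0521) were lost. By DESeq2 the calls of AC004917.1 (0.0876), AL078621.3 (0.057), AC090181.3 (0.0774) and AGPAT4-IT1 (0.0667) were lost.

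The rows with the highest mean FPKM moved little or rose by less than 2-fold. AC092718.4, in intron 12 of 12 of CENPN, a centromere protein gene, led with 17.7 FPKM and had 331, 266 and 242 counts in CB libraries, against 178, 146 and 165 in Vector libraries. AL049840.4 (chr14:103696353-103697163), in KLC1, a kinesin light chain gene, had 294, 234 and 219 in CB libraries, against 161, 158 and 158 in Vector libraries. Neither overlapped between groups, and the log2 changes were 0.75 ± 0.14 and 0.62 ± 0.14 (edgeR adjusted p = 0.000294 and 0.00126), beside 0.46 for CENPN and 0.48 for KLC1.

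AC024075.1, in SMIM7, had 134, 149 and 111 counts in CB libraries, against 90, 75 and 75 in Vector libraries, a log2 change of 0.68 (edgeR adjusted p = 0.0022). AC243964.3, in CEACAM19, had 328, 348 and 320 in CB libraries, against 259, 235 and 275 in Vector libraries, a log2 change of 0.34 (edgeR adjusted p = 0.0155, and 0.106 without Vector replicate 2). Neither overlapped between groups. AC127496.7, a TEC row in CHMP6, an ESCRT-III gene, had fewer FPKM but a smaller p, with 116, 162 and 136 counts in CB libraries, against 52, 51 and 69 in Vector libraries, and a log2 change of 1.23 ± 0.18 (edgeR adjusted p = 1.49e-05), beside 0.74 for CHMP6.

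Among the 8 rows with the highest mean FPKM, 4 did not pass the test. In AC068580.1, within CTSD, the cathepsin D gene, in AL139287.1, within INTS11, the Integrator endonuclease gene, in AC131009.3, within PUS1, a pseudouridine synthase gene, and in AC006058.4, which has no host, the groups overlapped. AL139287.1 also shares exon bases with INTS11, so its reads are uncertain. The log2 changes of the 4 rows were 0.06 ± 0.22, −0.04 ± 0.18, 0.41 ± 0.24 and −0.24 ± 0.18 (edgeR adjusted p = 0.851, 0.895, 0.192 and 0.331). CTSD, INTS11 and PUS1 were each called higher, with log2 changes of 0.44, 0.43 and 0.64. For AC006058.4, CB replicate 1 held 135 counts and the other CB libraries 283 and 299, against 258, 302 and 264 in Vector libraries.

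Set against their hosts, the rows followed them loosely, and more closely where counts were higher. Across the 549 rows with a tested host, Pearson's r between the log2 change of the row and that of its host was 0.20 and Spearman's rho 0.18. Across the 49 rows with at least 300 counts these were 0.72 and 0.53. These 49 include AL035425.3 (log2 change 5.23), whose host AL035425.2 (2.40) held very few counts. Such an extreme pair can raise Pearson's r, and values without it were not computed. Rows that share a host or a library are not independent, and the values are descriptions. The row's change lay above the host's in 367 of 549 rows, or 66.8%, with medians of 0.44 for rows and −0.04 for hosts. With at least 60 counts in the row this was 110 of 189, or 58.2%, with medians of 0.17 and 0.02.

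Called rows were set beside the calls of their hosts. Over all 549 rows the host was called higher for 137, lower for 164, or 29.9%, and not called for 248, or 45.2%. Of 60 rows called higher that had a tested host, 30 had a host called higher, 18 a host not called and 12 a host called lower. Of 22 rows called lower, 15 had a host called lower, 5 a host not called and 2 a host called higher. Among the 98 rows without a host that lay within 10000 bases of the end of another gene on their strand, r with that gene's change was 0.38 and rho 0.39. There 4 of 11 rows called higher and 9 of 10 called lower followed a gene called the same way. Of all genes tested, 18.4% were higher and 19.5% lower. The shares among the genes before these 98 rows are not given here, so these small counts are a description.

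**Figure D5:**
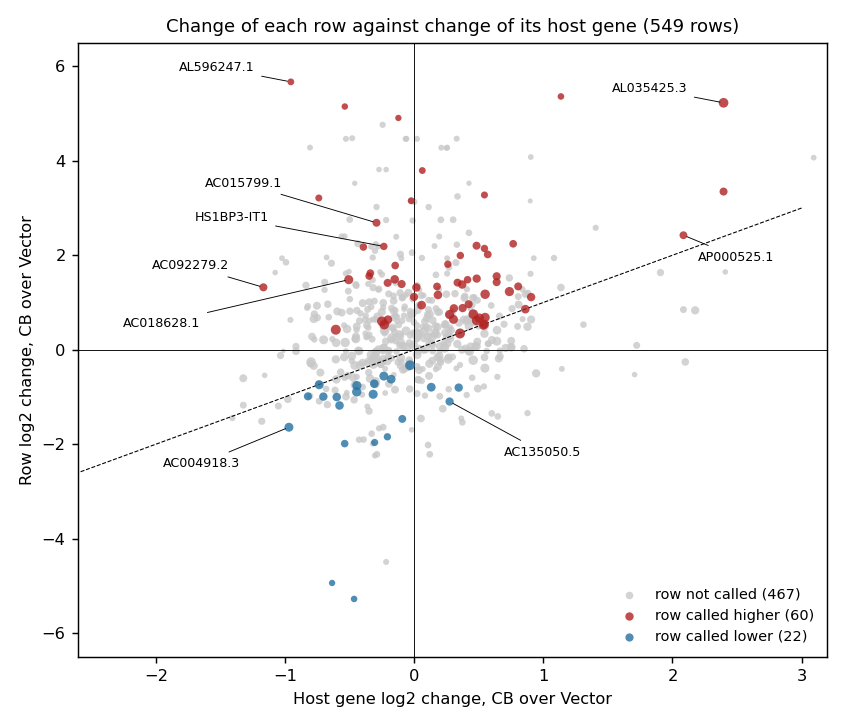
Log2 change of each of 549 rows (vertical axis) against that of its host gene (horizontal axis), both CB over Vector, with the dashed line at equality. Points are rows, larger with more counts, and 60 called higher, 22 called lower and 467 not called are shown in separate colours. Rows far from 0 with small points rest on few counts.

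The ratio of row to host was tested directly with limma over 2176 pairs, namely each tested gene inside another on the same strand and each selected row with its host. Of the 549 selected rows, 11 had a higher and 2 a lower ratio in CB libraries, beside 1.84% and 0.781% of all pairs. The median change of the log2 ratio was 0.31 for the rows and 0.35 for the other pairs. It was 0.68 for snRNA, 0.60 for misc_RNA and 0.52 for processed pseudogene pairs, and 0.01 for pairs of 1 protein-coding gene inside another. A prior count of 2 in place of 0.5 gave 31 rows higher and 6 lower.

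AC018628.1 (chr17:62003700-62007518), a TEC row in intron 8 of 28 of MED13, a subunit gene of the Mediator kinase module, had the smallest p of the 12 rows called higher in a host called lower. It had 127, 100 and 127 counts in CB libraries, against 44, 31 and 49 in Vector libraries, without overlap. MED13 had 966, 1317 and 1448 in CB libraries, against 1790, 1685 and 1699 in Vector libraries, also without overlap. The log2 changes were 1.48 ± 0.20 for the row and −0.51 for MED13 (edgeR adjusted p = 8.47e-06 and 0.000546), and the log2 ratio rose by 2.01 ± 0.30 (limma adjusted p = 0.00152). By limma on log2(FPKM + 0.1) the adjusted p of MED13 was 0.0545.

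AL161891.1 (chr13:33846190-33850825), in the last intron of RFC3, a subunit gene of the replication clamp loader, had 277, 310 and 285 counts in CB libraries, against 174, 193 and 195 in Vector libraries. Its log2 change was 0.60 ± 0.11 without overlap (edgeR adjusted p = 0.00023), beside −0.25 for RFC3 (adjusted p = 0.0219). The ratio rose by 0.85 ± 0.22 (limma adjusted p = 0.049). The call of RFC3 was lost without any 1 of the 3 Vector libraries (0.0738 to 0.0871) or without CB replicate 2 (0.0898), and with upper-quartile scaling (0.0922).

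AC015799.1 rose while PAFAH1B1 fell by 0.29, with a log2 ratio change of 2.85 ± 0.49 (limma adjusted p = 0.00351). AC092279.2, in ZNF254, a zinc finger gene, had 13, 34 and 28 counts in CB libraries, against 11, 9 and 9 in Vector libraries, and ZNF254 fell by 1.17 on the log2 scale. Its groups did not overlap in CPM, with a log2 change of 1.32 ± 0.39 (edgeR adjusted p = 0.0116), lost without Vector replicate 2 (0.0584) or CB replicate 2 (0.0843). By limma on log2(FPKM + 0.1) and log2(FPKM + 1) this call was lost too (adjusted p = 0.0623 and 0.0627). AL596247.1, in VCL, the vinculin gene, had 4, 8 and 7 counts in CB libraries and none in any Vector library (edgeR adjusted p = 0.00432). With the summed Vector group set at 3 counts the rise was 6.20-fold, with no allowance for error in the CB counts. VCL fell by 0.95. HS1BP3-IT1 had 7, 13 and 14 counts in CB libraries, against 1, 4 and 2 in Vector libraries, while HS1BP3 fell by 0.23 (edgeR adjusted p = 0.0349). The HS1BP3 call was lost under 10 alternatives, among them leaving out any 1 Vector library (0.0764 to 0.137) or CB replicate 3 (0.0943).

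Rows within 1 host could differ. In KAT8, a histone acetyltransferase gene, AC135050.5 had 7, 19 and 16 counts in CB libraries, against 36, 26 and 26 in Vector libraries, a log2 change of −1.10 ± 0.35 (edgeR adjusted p = 0.0179). Its groups did not overlap, and the call was lost without Vector replicate 1 (0.101) or CB replicate 1 (0.0562). AC135050.6, chosen after its values were seen, had 142, 116 and 106 in CB libraries, against 82, 78 and 53 in Vector libraries, a log2 change of 0.75 ± 0.19 (edgeR adjusted p = 0.0036). KAT8 rose by 0.27, a call lost without Vector replicate 2 or 3 or CB replicate 2 (0.0575 to 0.129). Of the 4 rows in XKR6, 3 were called higher, among them AF131215.4, with 7, 12 and 14 counts in CB libraries, against 3, 2 and 2 in Vector libraries. By edgeR none of the 6 rows in CCDC92 was called.

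Genes of the machinery that removes, ends or splices such transcripts are given beside all protein-coding genes tested, of which 25.5% were higher and 28.8% lower. Of 19 tested genes of nuclear RNA decay, 5 were higher in CB libraries, all subunits of the RNA exosome (EXOSC2, EXOSC3, EXOSC4, EXOSC5 and EXOSC6), and 7 were lower. The lower ones were the exosome subunit EXOSC8, the exosome nuclease DIS3, the exonuclease XRN2, the helicase MTREX and its partners ZCCHC8, RBM7 and ZFC3H1, between −0.53 and −0.19. The median log2 change of the 19 genes was −0.03, the same as over all protein-coding genes tested (−0.03). Of 20 genes of cleavage and polyadenylation, 3 were higher and 10 lower, with a median of −0.21, among them NUDT21 at −0.73 and PCF11 at −0.69. Of 20 genes of the U1 particle and splice site recognition, 10 were higher and 1, SF3B1, was lower, with a median of 0.29. NEAT1, a long RNA retained in the nucleus, fell by 0.80, and MALAT1 did not pass the test at −0.18. Their part in the changes of the rows was not tested.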

How the data were processed

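RNA of 6 MDA-MB-231 libraries was oligo(dT)-selected and sequenced after NEBNext Ultra library preparation. Tools listed in the submitters' notes on processing were featureCounts 1.5.0-p3 and HISAT2 2.0.5, and per the methods the authors counted uniquely mapped reads in exons. The deposited tables hold unnormalized counts and FPKM per gene. The sources do not give the genome build, whether counting used strand, or any sequencing batch. Gene coordinates equalled those of GENCODE 29 (GRCh38) for 58735 of 58735 genes, and hosts were taken from it. A host is a gene on the same strand whose span holds or overlaps the row.

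Counts of the 22289 genes whose mean reached 0.1 FPKM were compared with the quasi-likelihood test of edgeR 4.0.16 (R 4.3.3, TMM scaling, Benjamini-Hochberg adjusted p under 0.05). The log2 ratio of row to host CPM, with a prior count of 0.5, was compared with limma 3.58.1. DESeq2 1.42.0 was an alternative. Shares per library were compared with two-sided exact permutation tests. Only the edgeR test was run on simulated counts. Of 100 genes changed 2-fold and 100 changed 4-fold it recovered 91 and 95, with 10 false calls among 196. Changed genes there had at least 60 counts and were far fewer than those called here. The simulation therefore does not cover rows with fewer counts, the ratio test or the share test.

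Rows were named when they were among the 12 largest called rises or falls with at least 30 counts and no overlap in CPM, the 8 highest in mean FPKM, the 6 with the smallest p-values, or up to 6 called rows opposite to a called host, with the host of each. CNR1 checked the labels. The members, gene lists and rules were chosen with earlier results of these data known. A planned sequence window that needed a genome was replaced by the last 50 bases of the longest annotated transcript. Intervals and floors cover counting error only.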

Additional observations from a re-analysis of the deposited data

How the results depend on the processing

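In the main fit 8452 of 22289 genes were called, with 81 rows higher and 36 lower. DESeq2 called 7555 genes, with 54 rows higher and 21 lower. At an adjusted p under 0.01 there were 6340 genes, with 40 rows higher and 18 lower. At an adjusted p under 0.05 and a change above 2-fold, 1714 genes were called in all, with 54 rows higher and 14 lower. The 330 rows with a mean of at least 0.5 FPKM gave 53 higher and 28 lower. The share of sense-overlapping rows alone gave a ratio of 1.27, and 1.10 without AL035425.3. The ratio of row to host with a prior count of 2 gave 31 higher and 6 lower. Pairs with at least 60 counts in the row gave 12 higher and 4 lower. These settings change the threshold, the prior or the rows counted, and for DESeq2 the cause was not tested. Leaving out 1 library at a time gave 6533 to 9267 genes called, 46 to 93 rows higher, 21 to 34 lower and a share ratio of 1.09 to 1.17.

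Replicate numbers recur in both groups, but deviations of same-numbered libraries correlated at −0.056, −0.0049 and −0.022. These values gave no sign of pairing, though they cannot show whether same-numbered libraries were prepared together. With the replicate number as a block 8200 genes were called, with 75 rows higher and 32 lower. Under the block AC004917.1 and AC090181.3 missed the threshold. None of the 35 called named rows changed direction in the alternatives that tested it, and 16 missed the threshold in at least 1. Limma on log2(FPKM + 0.1) lost 10 of the 35, limma on log2(FPKM + 1) lost 7, and DESeq2 lost 4 of 34. Only 20 of the 35 were tested in all 17 alternatives, and 15 of these 20 passed in each. Changes that were not called did turn sign. AL139287.1 gave 0.032 with upper-quartile scaling and −0.095 to 0.033 when leaving out 1 library. Leaving out 1 library gave −0.15 to 0.18 for AC068580.1, −0.43 to 0.024 for AC006058.4 and −0.25 to 0.010 for CEBPZOS. Rows without shared exon bases gave 65 higher and 31 lower, and rows with at least 30 counts gave 70 and 33, both chosen after seeing the data, like the shares without AL035425.3 or without AL035425.3 and AL035425.4. Rows with under 60 counts, 471 of 766, were called in 32 cases, and a row that was not called is not shown to be unchanged.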
